A study of Macaca mulatta with 24 samples.

Results

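The VEGF and angiopoietin signals are 10 genes that encode secreted signals for blood and lymphatic vessels and the receptors that receive them. They are the ligands *VEGFA*, *VEGFB*, *VEGFC* and *PGF*, the receptors *FLT1* and *FLT4*, the co-receptors *NRP1* and *NRP2*, and the angiopoietins *ANGPT1* and *ANGPT2*. They were chosen by symbol and not by a cut on their values, but with earlier results of these data known. Each matched 1 Ensembl ID among the 32386 genes of the count table. All 10 passed the filter on low counts, with between 14 counts (*PGF* in 1 *T* + *WSD* animal) and 17810 counts (*NRP1* in 1 *T* animal) per library.

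The samples are omental white adipose tissue (WAT), a visceral fat depot, from 24 female rhesus macaques. The control group (*C*) carried cholesterol implants and ate monkey chow, the *T* group carried testosterone implants and ate chow, the *WSD* group carried cholesterol implants and ate a high-fat Western-style diet, and the *T* + *WSD* group received testosterone and the diet. Each group had 6 animals, labelled as 4 years old, treated for 3 years and selected by the study as representative of their group. RNA depleted of ribosomal RNA was sequenced, and the data are raw counts per gene with 1 library per animal. Values below are counts scaled to a common TMM-normalised library size (CPM), which compare 1 gene between animals and, without gene lengths, not 1 gene with another.

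VEGF ligands signal through receptor tyrosine kinases on endothelial cells. VEGFA acts mainly through KDR (VEGFR2) on blood vessels, while VEGFC and VEGFD act through FLT4 (VEGFR3) on lymphatic vessels. FLT1 (VEGFR1) binds VEGFA, VEGFB and PGF and, also as a soluble form, can hold VEGFA away from KDR. Neuropilins present VEGF to these receptors and also bind class 3 semaphorins. Angiopoietin 1 steadies vessels through the receptor TEK, and angiopoietin 2 commonly opposes it. Adipocytes are a known source of VEGFA, and fat depends on vessel growth when it expands.

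Total counts per library ranged from 6899185 to 28270776, with a median of 20630512.5. The unnamed gene ENSMMUG00000038258 made up 9.92% to 54.7% of the counts in 8 libraries, 2 per group, here called the library batch, and 0.879% to 2.51% in the other 16. The batch was set by this share (over 5%) and not by a label. Its 8 libraries were also the shallowest, with 6899185 to 17538167 total counts against 20177588 to 28270776 in the other 16. *T* + *WSD* replicate 8 had both the fewest counts and the 54.7%. Control replicate 1, a library of the batch, stood apart from the other controls. Its mesothelial markers, genes of the cell layer that covers the omentum, summed to 38900 CPM, and its 11 endothelial markers summed to 858 CPM, the lowest of all animals. Its adipocyte markers summed to 3660 CPM, also the lowest of all animals, with 13300 CPM in the next lowest (*T* replicate 13). None of the 10 adipocyte or 11 endothelial markers was at 0 in any library, which at this depth says little about the tissue label.

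Under the combined treatment, 3 of the 10 genes rose and 1 fell against *C*. *VEGFC*, *FLT1* and *NRP1* rose by 1.63 to 1.74-fold, and *PGF* fell to 0.395 of its control level. These 4 calls (edgeR quasi-likelihood test, fold change over 1.5 at a Benjamini-Hochberg adjusted p under 0.05) compare with 10% of all 15207 tested genes called in the same comparison. The groups did not overlap for 2 of the 10 genes, *VEGFC* and *NRP1*, against 7.61% of all tested genes. The median log2 fold change of the 10 genes was 0.47, against -0.04 over all tested genes, and 8 of the 10 were positive. DESeq2 called the same number, 4 of 10, against a background of 10.9%.

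**Figure D1:**
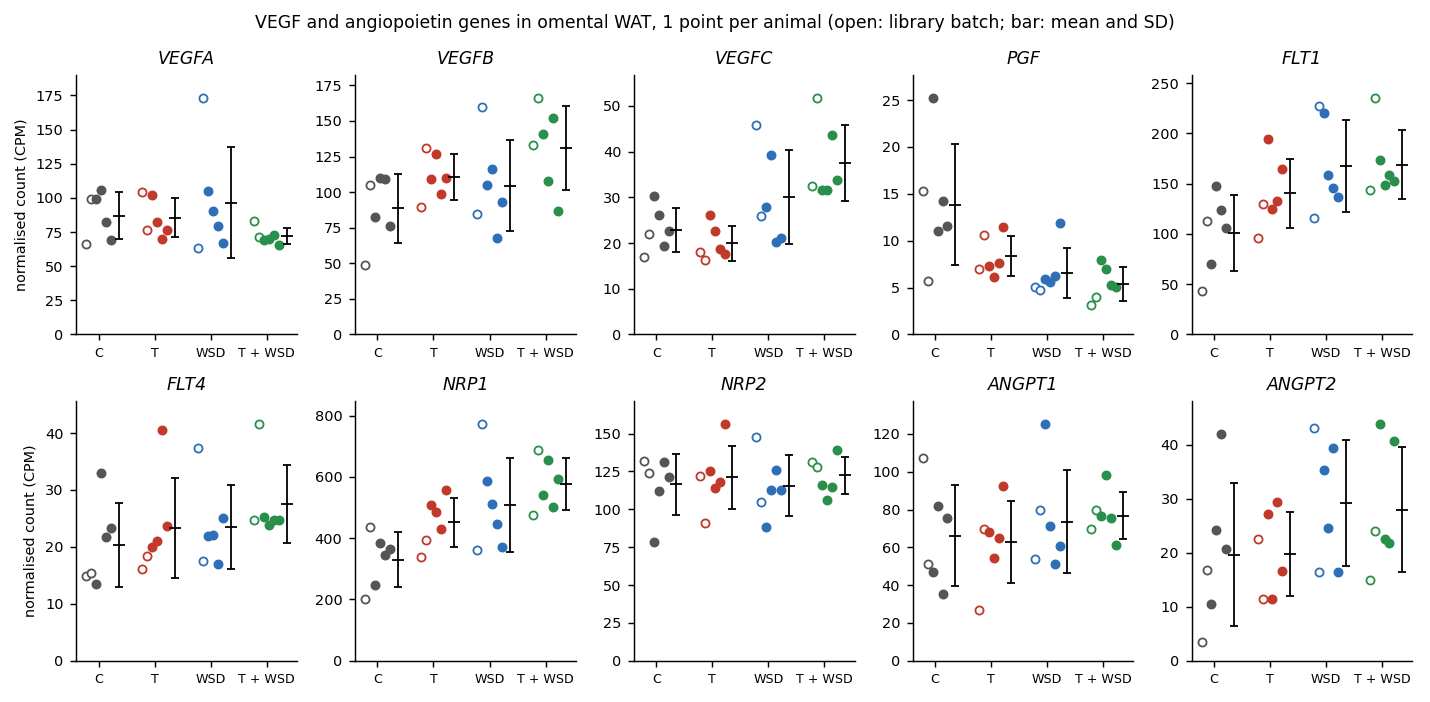
Normalised counts (CPM, vertical axes from 0) of the 10 genes in each of the 24 animals, by group, with the mean and SD as bars and open points for the library batch. *VEGFC* and *NRP1* of all 6 *T* + *WSD* animals lie above every control, while *PGF* of the controls spreads from 5.74 to 25.2 CPM.

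Among the ligands, *VEGFA* was at 66, 90.8 and 106 CPM (lowest, median and highest animal) in *C* and at 65.8, 70.7 and 82.9 CPM in *T* + *WSD*. In *T* it was at 70, 79.7 and 104 CPM and in *WSD* at 63.6, 84.8 and 173 CPM. The 4 groups overlapped, and the *T* + *WSD* animals lay closest together, with an SD of 5.79 CPM against 17.2 in *C*. The log2 fold change of *T* + *WSD* against *C* was -0.27 (SE 0.19, adjusted p = 0.332). Against *WSD* it was -0.42 (SE 0.19, adjusted p = 0.217).

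*VEGFB*, whose product binds FLT1 and is abundant in heart and brown fat, was at 48.9, 93.8 and 110 CPM in *C* and at 86.5, 137 and 166 CPM in *T* + *WSD*. The *T* animals were at 89.4, 110 and 131 CPM and the *WSD* animals at 67.5, 99.3 and 160 CPM, with medians between those of *C* and *T* + *WSD* and ranges that overlapped both. Of the *T* + *WSD* animals, 4 of 6 were above every control. The log2 fold change was 0.56 (SE 0.20, 1.48-fold), which missed both thresholds, that of 1.5-fold and that of the adjusted p (0.0575). It passed without control replicate 2, 4 or 5 or without *T* + *WSD* replicate 12 (adjusted p 0.0456, 0.0483, 0.0418 and 0.0332).

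*VEGFC*, the principal growth signal of lymphatic vessels, was at 17, 22.4 and 30.2 CPM in *C*. In *T* + *WSD* it was at 31.5, 33.2 and 51.7 CPM, so that the lowest of these animals was above the highest control. The *T* animals were at 16.3, 18.4 and 26.2 CPM, all below every *T* + *WSD* animal, and the *WSD* animals spanned both at 20.3, 26.9 and 45.9 CPM. Against *C* the log2 fold change was 0.70 (SE 0.19, 1.63-fold, adjusted p = 0.0171). Against *T*, which isolates the diet under testosterone, it was 0.90 (SE 0.19, 1.87-fold, adjusted p = 0.0139). Both calls held in each of the 12 fits that left out 1 animal of the groups compared.

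The order of the group means of *VEGFC* was *T* (19.9 CPM), *C* (22.9), *WSD* (30.1) and *T* + *WSD* (37.5), and no neighbours in that order differed in the test. The adjusted p was 0.794 for *T* against *C*, 0.285 for *WSD* against *C* and 0.371 for *T* + *WSD* against *WSD*. The diet difference was 0.39 on the log2 scale without testosterone and 0.90 with it. The interaction, 0.51 (SE 0.27), had an unadjusted p of 0.0725 and an adjusted p of 0.421 in edgeR, so the 2 diet differences were not shown to differ.

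*PGF*, a ligand of FLT1 that does not bind KDR, was at 5.74, 12.9 and 25.2 CPM in *C* and at 3.1, 5.18 and 7.99 CPM in *T* + *WSD*. The *WSD* animals were at 4.74, 5.77 and 11.9 CPM and the *T* animals at 6.13, 7.46 and 11.5 CPM. The controls were the most spread, and 4 of 6 *T* + *WSD* animals were below all of them. The log2 fold change of *T* + *WSD* against *C* was -1.34 (SE 0.29, adjusted p = 0.00614), and the call held in each of the 12 fits that left out 1 animal. *WSD* against *C* gave -1.07 (SE 0.29) with an adjusted p of 0.131 in edgeR and a call in DESeq2 (adjusted p = 0.0252), and *T* against *C* gave -0.74 (SE 0.29, adjusted p = 0.547). The group means stood in the order *C* (13.8 CPM), *T* (8.36), *WSD* (6.58) and *T* + *WSD* (5.39), with no call by edgeR between neighbours tested in that order (*T* + *WSD* against *WSD*, adjusted p = 0.641).

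The balance of *PGF* to *VEGFA*, the log2 ratio of their counts in the same library, does not depend on library size. It averaged -2.76 ± 0.80 in *C* and -3.37 ± 0.51 in *T* (SD, n = 6 each). With the diet it averaged -3.85 ± 0.87 in *WSD* and -3.79 ± 0.57 in *T* + *WSD*. All 4 groups overlapped, and the *WSD* group alone ran from -5.17 to -2.48. The ratio was not tested.

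Of the receptors, *FLT1* was at 43.6, 109 and 148 CPM in *C* and at 144, 156 and 235 CPM in *T* + *WSD*. The *WSD* animals were at 116, 152 and 227 CPM and the *T* animals at 95.6, 131 and 194 CPM. The controls were lowest, and 5 of 6 *T* + *WSD* animals were above all of them. The log2 fold change of *T* + *WSD* against *C* was 0.74 (SE 0.23, 1.67-fold, adjusted p = 0.0331). *WSD* against *C* had nearly the same size at 0.73 (SE 0.23) with an adjusted p of 0.144, and *T* against *C* gave 0.48 (SE 0.23, adjusted p = 0.579). The call of *FLT1* was lost without control replicate 1 or 3 (adjusted p 0.0645 and 0.0812) and without *T* + *WSD* replicate 8 or 9 (0.0814 and 0.0559).

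*FLT4*, the receptor of VEGFC and mainly lymphatic, was at 13.5, 18.6 and 32.9 CPM in *C* and at 23.9, 24.8 and 41.5 CPM in *T* + *WSD*. It was at 16.1, 20.5 and 40.5 CPM in *T* and at 17, 22 and 37.4 CPM in *WSD*. The groups overlapped, and the log2 fold change of *T* + *WSD* against *C* was 0.42 (SE 0.24, adjusted p = 0.239). The 5 lymphatic endothelial markers in the table summed to 143, 202 and 346 CPM in *C* and to 135, 166 and 182 CPM in *T* + *WSD*. None of the 5 was called, and all 5 had negative log2 fold changes with a median of -0.35, so neither *FLT4* nor these markers passed the test where *VEGFC* did.

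Of the co-receptors, *NRP1* was at 203, 355 and 438 CPM in *C* and at 476, 567 and 689 CPM in *T* + *WSD*, with no overlap. It was at 339, 459 and 556 CPM in *T* and at 363, 477 and 771 CPM in *WSD*. The group means stood in the order *C* (330 CPM), *T* (452), *WSD* (508) and *T* + *WSD* (576). *T* + *WSD* against *C* gave a log2 fold change of 0.80 (SE 0.19, 1.74-fold, adjusted p = 0.00914), and the call held in each of the 12 fits that left out 1 animal. *WSD* against *C* gave 0.62 (SE 0.19, 4 of 6 animals above every control, adjusted p = 0.139). *T* against *C* gave 0.46 (SE 0.19, 3 of 6 above every control, adjusted p = 0.547).

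*NRP2*, the neuropilin linked to lymphatic and venous vessels, was at 78.4, 123 and 132 CPM in *C* and at 106, 122 and 139 CPM in *T* + *WSD*. It was the least varied of the 10 between groups, with means of 116 ± 19.9 (*C*), 121 ± 21.1 (*T*), 115 ± 20 (*WSD*) and 122 ± 12.3 CPM (*T* + *WSD*; SD, n = 6 each). The log2 fold change of *T* + *WSD* against *C* was 0.07 (SE 0.13, adjusted p = 0.76), and its sign turned (-0.021) without control replicate 3.

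Of the angiopoietins, *ANGPT1* was at 35.3, 63.2 and 107 CPM in *C* and at 61.1, 75.9 and 98.4 CPM in *T* + *WSD*. The *T* animals were at 27, 66.5 and 92.6 CPM and the *WSD* animals at 51.3, 65.9 and 125 CPM, so that all 4 groups overlapped. *ANGPT2*, made by activated endothelial cells, was at 3.54, 18.8 and 42.1 CPM in *C* and at 15, 23.3 and 43.8 CPM in *T* + *WSD*. Its *T* animals were at 11.5, 19.6 and 29.5 CPM and its *WSD* animals at 16.5, 30 and 43.1 CPM. The controls spanned most of the range of both genes. *T* + *WSD* against *C* gave a log2 fold change of 0.21 (SE 0.27, adjusted p = 0.631) for *ANGPT1* and 0.52 (SE 0.41, adjusted p = 0.413) for *ANGPT2*. For *ANGPT2*, *WSD* against *C* gave 0.57 (SE 0.41, adjusted p = 0.465).

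The log2 ratio of *ANGPT2* to *ANGPT1* counts within a library averaged -2.00 ± 1.66 in *C* and -1.67 ± 0.92 in *T* (SD, n = 6 each). It averaged -1.37 ± 0.82 with the diet alone and -1.54 ± 0.68 under both treatments. The controls ran from -4.90 to 0.25 and enclosed the group means of the other three. Control replicate 1 had the highest *ANGPT1* (107 CPM) and the lowest *ANGPT2* (3.54 CPM) of its group.

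**Figure D2:**
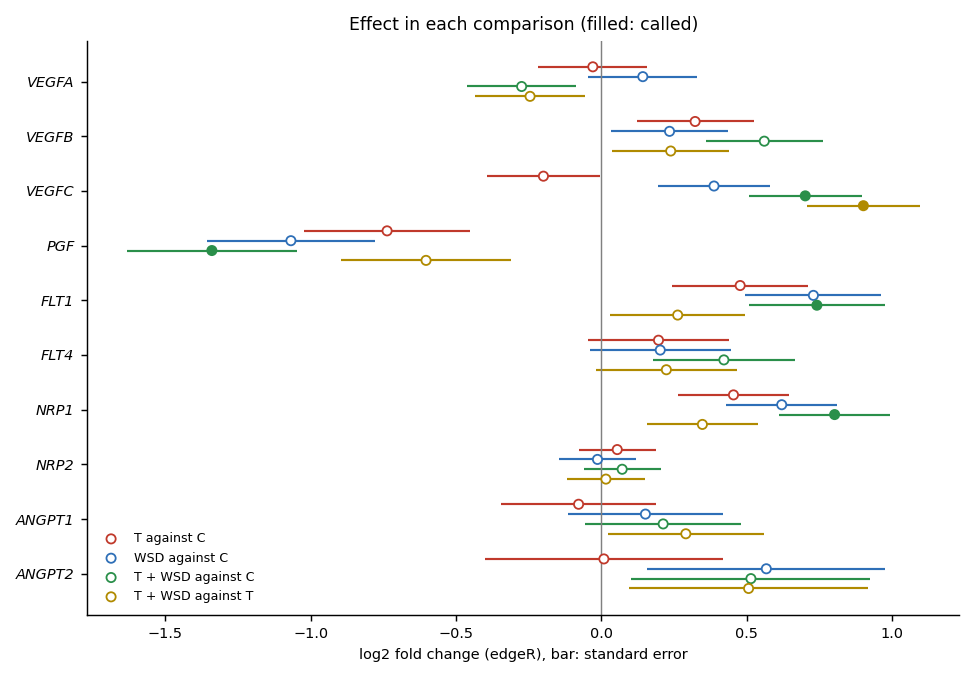
Log2 fold change of each of the 10 genes (horizontal axis, bars for the standard error, edgeR), with filled points for calls. The comparisons drawn are *T*, *WSD* and *T* + *WSD* against *C*, and *T* + *WSD* against *T*. In *T* + *WSD* against *C* the filled points are *VEGFC*, *FLT1* and *NRP1* to the right of 0 and *PGF* at -1.34.

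Either treatment alone gave no call by edgeR among the 10 genes. In *WSD* against *C*, edgeR called 0 of 10 with 3 at an unadjusted p under 0.05 (*PGF*, *NRP1* and *FLT1*), and DESeq2 called 1, *PGF*. Over all tested genes edgeR called 0% and DESeq2 called 1.58% there, and 0.401% of genes had groups that did not overlap, none of them among the 10. In *T* against *C*, edgeR called 0 of 10 with 2 at an unadjusted p under 0.05 (*PGF* and *NRP1*), DESeq2 called 0, and the backgrounds were 0% and 0.0466%. The comparisons against *C* share their 6 control animals, so their values for one gene are not independent of each other.

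Adding testosterone to the diet (*T* + *WSD* against *WSD*) gave 0 calls of 10 in edgeR, 1 at an unadjusted p under 0.05 (*VEGFA*), and 0 in DESeq2, against backgrounds of 0.815% and 2.54%. Adding the diet to testosterone (*T* + *WSD* against *T*) gave 1 call in either tool, *VEGFC*, against backgrounds of 3.77% and 5.92%. *VEGFC* was also the 1 gene of the 10 without overlap in that comparison, where 6.10% of all tested genes had none. In the interaction, called at an adjusted p under 0.1, 0 of 10 were called by edgeR and by DESeq2, 0 had an unadjusted p under 0.05, and the backgrounds were 0.809% and 2.77%.

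Of the other ligands and receptors of these pathways, 3 of 5 tested rose in *T* + *WSD* against *C* and none fell, with a median log2 fold change of 0.63. Over all tested genes 10% were called there, and 3.77% in *T* + *WSD* against *T*, shares that stand beside every list below. *VEGFD*, the other ligand of FLT4, ran from 0.757 to 10.2 CPM in *C* and from 11.4 to 25.2 CPM in *T* + *WSD*, without overlap (log2 fold change 1.88, SE 0.54, adjusted p = 0.0207). *PTPRB*, a phosphatase that restrains TEK and KDR, ran from 95.9 to 228 CPM and from 305 to 474 CPM (0.90, SE 0.20, adjusted p = 0.00681). *TIE1*, an endothelial partner of TEK, ran from 24.8 to 60.6 CPM and from 63.2 to 78.3 CPM (0.63, SE 0.19, adjusted p = 0.0266), and its call held in 9 of the 12 fits that left out 1 animal (adjusted p 0.0522 and 0.0651 without control replicate 1 or 3, and a fold change under 1.5 without replicate 2).

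All 6 *T* + *WSD* animals were above every control for these 3 genes, where 7.61% of all tested genes had groups that did not overlap. In the 16 libraries outside the batch none of the 3 was called (adjusted p 0.104 for *VEGFD*, 0.0758 for *PTPRB* and 0.255 for *TIE1*). The receptors *KDR* and *TEK* were not called. *KDR* averaged 145 ± 75.6 CPM in *C* and 115 ± 15.4 CPM in *T* + *WSD* (-0.34, SE 0.28, adjusted p = 0.435). *TEK* averaged 105 ± 33 and 111 ± 24.9 CPM (0.08, SE 0.19, adjusted p = 0.828). The highest control for both was replicate 1, at 272 CPM for *KDR* and 167 CPM for *TEK*. *ANGPT4*, a further ligand of TEK, had at most 10 counts in a library and was not tested.

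Neuropilins also serve class 3 semaphorins, with plexins as the signalling chains. Of 12 such genes tested, 2 rose, 1 fell and 9 did not pass in *T* + *WSD* against *C* (median 0.13), where 10% of all tested genes were called. *SEMA3G*, an endothelial semaphorin, ran from 12.3 to 58.8 CPM in *C* and from 74.1 to 120 CPM in *T* + *WSD* (log2 fold change 1.22, adjusted p = 0.00918). *SEMA3A*, an NRP1 ligand that repels vessels and axons, ran from 15.6 to 48 CPM and from 6.92 to 17.1 CPM (-1.37, adjusted p = 0.0107). *PLXNA4*, a plexin, ran from 27.7 to 60.4 CPM and from 50.9 to 111 CPM (0.81, adjusted p = 0.041), and was also called against *T* (0.93, adjusted p = 0.0423). The latter call held in 2 of 12 fits that left out 1 animal, with an adjusted p of up to 0.0888 without *T* + *WSD* replicate 8. The call of *PLXNA4* against *C* held in 4 of the 12 fits that left out 1 animal, and its adjusted p was highest without *T* + *WSD* replicate 8 (0.0873). Outside the library batch the calls against *C* of *SEMA3G* (adjusted p 0.0781), *SEMA3A* (0.113) and *PLXNA4* (0.181) were all lost.

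Cells that lack oxygen stabilise hypoxia-inducible factors, which raise VEGFA. Of 7 oxygen-sensing genes tested, 3 rose and none fell (median 0.14), where 10% of all tested genes were called. *EPAS1*, which encodes HIF-2α and is abundant in endothelial cells and adipocytes, ran from 233 to 380 CPM in *C* and from 559 to 880 CPM in *T* + *WSD* (log2 fold change 1.02, adjusted p = 0.00226). It was also called against *T* (0.61, adjusted p = 0.0262), though not without *T* replicate 13 (0.0576) or *T* + *WSD* replicate 8 (0.0644). *HIF3A* averaged 1.48 ± 0.51 and 3.82 ± 2.17 CPM (1.31, adjusted p = 0.0174), and *EGLN3*, a prolyl hydroxylase that marks these factors for decay, averaged 13 ± 6.03 and 27.5 ± 8.31 CPM (1.09, adjusted p = 0.035). *EGLN3* was called in 5 of the 12 fits that left out 1 animal, with its highest adjusted p without *T* + *WSD* replicate 8 (0.0784), and *HIF3A* in 11, the exception being *T* + *WSD* replicate 7 (0.0567). Outside the library batch *EPAS1* kept its call against *C* (log2 fold change 0.91, adjusted p = 0.0436) and lost that against *T* (0.42, adjusted p = 0.137). There *HIF3A* was at 0.66 (adjusted p = 0.347) and *EGLN3* at 0.93 (adjusted p = 0.113).

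Of 10 oxygen-regulated target genes tested, 1 rose and none fell, with a median of -0.14 and 5 positive values. That is no more than the 10% called over all tested genes. The gene that rose was *ADM*, the vessel-active peptide adrenomedullin, at 24 to 52.8 CPM in *C* and 40.9 to 234 CPM in *T* + *WSD* (log2 fold change 1.55, adjusted p = 0.0321). It was called in 7 of the 12 fits, and its adjusted p was highest without *T* + *WSD* replicate 8 (0.0959). *CA12*, a carbonic anhydrase, fell in *T* + *WSD* against *T* (-1.03, adjusted p = 0.0347), a call that held in 3 of 12 fits (0.0774 without *T* + *WSD* replicate 8). Outside the library batch neither was called (adjusted p 0.15 for *ADM* against *C* and 0.0855 for *CA12* against *T*). *VEGFA*, itself an oxygen-regulated gene, was not called in any comparison.

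Of 19 genes that relay receptor signals inside the cell, 2 rose, 2 fell and 15 did not pass (median 0.07), where 10% of all tested genes were called. *NOS3*, the endothelial nitric oxide synthase, averaged 10.4 ± 2.34 CPM in *C* and 19.9 ± 4.59 CPM in *T* + *WSD* (log2 fold change 0.92, adjusted p = 0.00914). *PIK3R1*, a regulatory subunit of PI3 kinase, averaged 421 ± 105 and 661 ± 152 CPM (0.65, adjusted p = 0.0317), was called in 7 of the 12 fits, and had its highest adjusted p without control replicate 3 (0.0798). The adaptor *SHB* ran from 22.3 to 44.5 CPM in *C* and from 12.4 to 16.8 CPM in *T* + *WSD* (-1.08, adjusted p = 0.00295). The kinase *SRC* ran from 35.5 to 69.7 CPM and from 21.8 to 31.6 CPM (-0.81, adjusted p = 0.00476). Neither gene's groups overlapped, as for 7.61% of all tested genes. Outside the library batch none of the 4 was called (adjusted p 0.128 for *NOS3*, 0.274 for *PIK3R1*, 0.0713 for *SHB* and 0.0892 for *SRC*).

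Against *T*, *PIK3R1* was higher (log2 fold change 0.91, adjusted p = 0.0159) and called in each of the 12 fits that left out 1 animal. *SHB* was lower (-0.79, adjusted p = 0.0248) but was not called without *T* replicate 15 (0.0511) or *T* + *WSD* replicate 8 (0.0547). *SRC* was lower (-0.60, adjusted p = 0.0377) and was called in 3 of the 12, with 0.0833 without *T* + *WSD* replicate 8. Its change was under the fold threshold with DESeq2 (-0.575), RLE normalisation (-0.576), at least 10 counts in every animal (-0.572) and only the groups compared (-0.57). Outside the library batch all 3 calls against *T* were lost (adjusted p 0.0684 for *PIK3R1*, 0.0848 for *SHB* and 0.113 for *SRC*). Of 11 sprouting and tip cell genes, 2 rose and none fell in *T* + *WSD* against *C* (median 0.51, 9 positive), where 10% of all tested genes were called. They were *NOTCH4*, an endothelial Notch receptor, at 9.83 to 33.3 CPM in *C* and 43.9 to 68.7 CPM in *T* + *WSD* (1.16, adjusted p = 0.00322), and the Notch target *HEY1* at 5.06 to 7.84 and 10.1 to 15.8 CPM (0.94, adjusted p = 0.0127). Of 9 inhibitors of vessel growth, 1 rose, *THBS1* (1.22, adjusted p = 0.0235), and 1 fell, *SEMA3A* (above), with a median of 0.01 and the same share over all tested genes. *THBS1* lost its call in 3 of the 12 fits, without control replicate 1 or 3 or *T* + *WSD* replicate 12 (adjusted p 0.0551, 0.0557 and 0.0563). Outside the library batch *NOTCH4* was called (0.99, adjusted p = 0.0436), and *HEY1* (0.0928) and *THBS1* (0.106) were not.

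In *WSD* against *C* and in *T* against *C*, no gene of these 7 lists was called by edgeR, where the background was 0% as well.

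**Figure D3:**
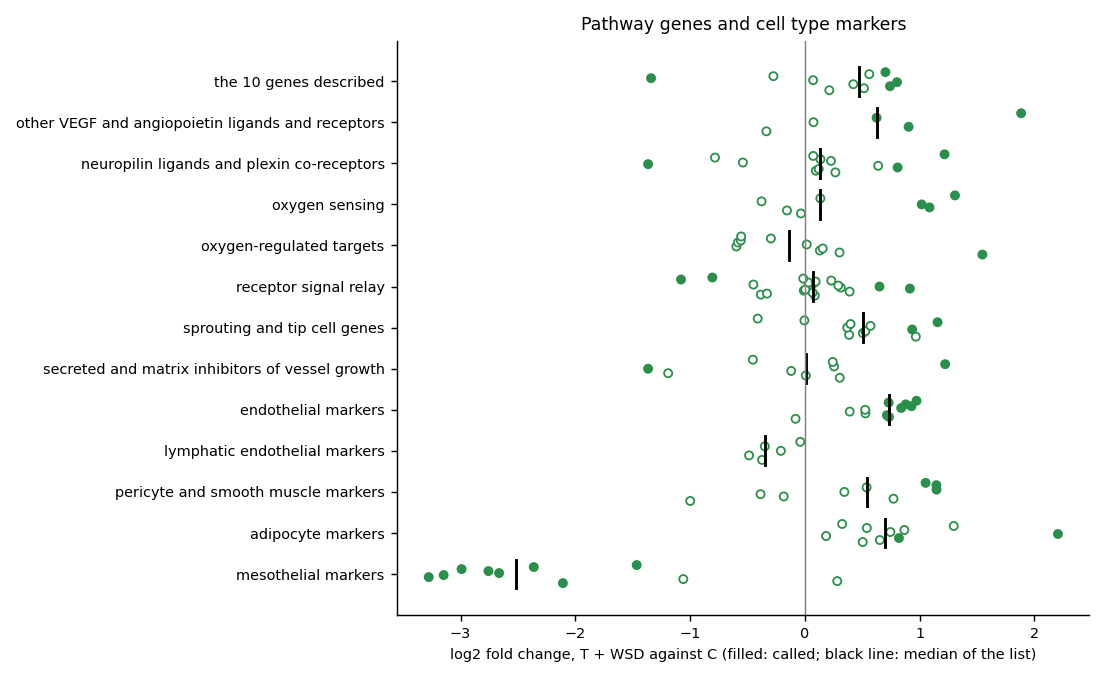
Log2 fold change of *T* + *WSD* against *C* (horizontal axis, edgeR) for each tested gene of the pathway and cell type marker lists, with filled points for calls and a black line at each list's median. The medians of the endothelial (0.73) and adipocyte (0.70) markers lie to the right of 0 and that of the mesothelial markers (-2.51) far to the left.

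Markers of several cell types moved in the same comparison as the 4 called genes, where 10% of all tested genes were called. Of the 11 endothelial markers tested, 7 rose and none fell, and their sum ran from 858 to 1960 CPM in *C* and from 2030 to 3180 CPM in *T* + *WSD*, without overlap. Of the 10 mesothelial markers tested, 8 fell, and the sum of 11 ran from 2840 to 38900 CPM and from 258 to 3100 CPM. Of these 11, *HP* alone was at 0 in any library. Of the 10 adipocyte markers, 2 rose, and the sum ran from 3660 to 26100 CPM and from 22200 to 34200 CPM. The 3660 CPM was control replicate 1, and the next lowest control was at 14300 CPM. Of 9 pericyte and smooth muscle markers 3 rose, of 8 fibroblast markers 1 rose, and of 7 macrophage and 4 T and NK cell markers none was called. In a bulk sample, fewer cells of a type and less RNA per cell cannot be told apart.

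The part of these markers in the changes of *VEGFC*, *PGF*, *FLT1* and *NRP1* was not tested beyond 2 adjusted fits. With the mean of the endothelial markers as a covariate, the log2 fold changes of *T* + *WSD* against *C* were 0.50 for *VEGFC*, -0.85 for *PGF*, -0.04 for *FLT1* and 0.34 for *NRP1*. With the mean of the mesothelial markers they were 0.41, -0.72, 0.03 and 0.22 in the same order. Neither fit called any of the 4 (adjusted p 0.955 to 0.998 and 1), nor any of the 15207 genes in this comparison. Both covariates differ between the groups compared, so these fits remove group differences together with the markers.

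Set against the endothelial markers, *FLT1* and *NRP1* had means in *C* and *T* + *WSD* that differed by less than their SD. This ratio was chosen after the values were seen and is a description. Per 1000 counts of the 11 endothelial markers, *FLT1* had 67.5 ± 15.1 counts in *C* and 67.7 ± 5.16 in *T* + *WSD*, and *NRP1* had 229 ± 43.8 and 235 ± 49.6 (SD, n = 6 each). The means were lower in *T* + *WSD* for *KDR* (117 ± 102 and 47.3 ± 10.8), *TEK* (82.8 ± 56.5 and 44.4 ± 4.27) and *NRP2* (85.4 ± 34.2 and 50.1 ± 8.74). The highest control values, 317, 195 and 154 in that order, were those of control replicate 1, which had the lowest marker sum. The ranges overlapped for *KDR* and *TEK*, and for *NRP2* they were 66.8 to 154 and 40.2 to 63.2. The log2 fold changes of these genes without the ratio were -0.34, 0.08 and 0.07, none called. The means were 14 and 11 for *FLT4*, 30.4 and 28.5 for *TIE1* and 131 and 143 for *PTPRB*. *VEGFC* had 16.7 ± 5.68 and 15.1 ± 2.24, with 11.1 ± 2.46 in *T*. *PGF* had 10.7 ± 7.24 in *C* and 2.22 ± 0.85 in *T* + *WSD*, with ranges of 4 to 21.7 and 1.24 to 3.41. The marker sum that divides all these counts itself did not overlap between *C* and *T* + *WSD*, whereas the CPM of *PGF* and of *NRP2* did. The gaps between the ranges of their ratios are therefore not results about *PGF* or *NRP2* alone. The *T* mean of *PGF* was 4.64 ± 1.17 and its *WSD* mean 3.48 ± 1.77.

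**Figure D4:**
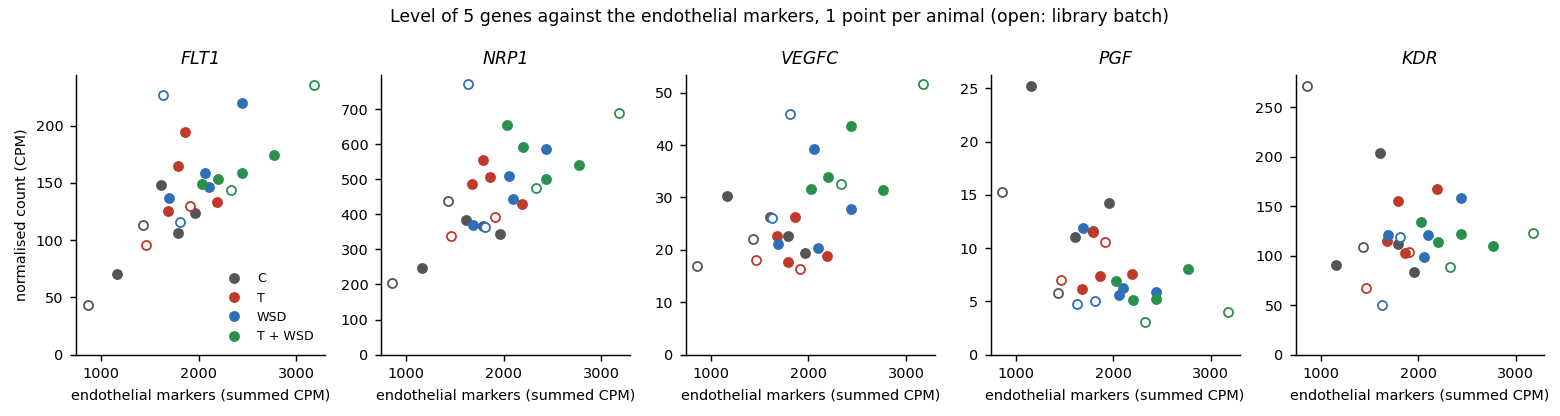
Normalised counts of 5 genes (CPM, vertical axes from 0) against the summed CPM of the 11 endothelial markers in the 24 animals, coloured by group, with open points for the library batch. The *T* + *WSD* animals, at 2030 to 3180 CPM of markers, lie to the right of every control, and *FLT1* is higher where the markers are higher.

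Within groups, *FLT1* and *NRP1* varied together more than any other pair. Over the 24 libraries, the deviations of log2 CPM from the group means correlated at r = 0.86 for *FLT1* and *NRP1*, 0.72 for *VEGFB* and *FLT1*, 0.61 for *VEGFB* and *NRP1* and 0.58 for *VEGFA* and *VEGFB*. The lowest were *PGF* with *NRP1* (-0.41), *VEGFA* with *NRP2* (-0.37) and *ANGPT1* with *ANGPT2* (-0.36). These values are descriptions over libraries that share depth, batch and cell makeup.

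The same deviations of *FLT1* correlated at 0.84 with the adipocyte and 0.73 with the endothelial markers, and those of *NRP1* at 0.67 and 0.47. With the mesothelial markers *FLT1* was at -0.59 and *NRP1* at -0.55. Control replicate 1 had the lowest *FLT1* (43.6 CPM), *NRP1* (203 CPM), adipocyte and endothelial markers of all animals, and the highest mesothelial markers. The r given for *FLT1* and *NRP1* include this animal and were not computed without it. *VEGFB* followed the adipocyte markers (0.78), and *FLT4* the lymphatic (0.86) and less closely the endothelial markers (0.53). *ANGPT2* followed the endothelial (0.71), fibroblast (0.61), macrophage (0.58) and lymphatic markers (0.56), while *VEGFC* and *PGF* followed no list beyond 0.43 in size. Among all tested genes with a symbol, those most like *FLT1* were *ARHGAP31* (0.92), *EMCN* (0.91, an endothelial sialomucin and one of the 11 markers) and *UNC13B* (0.88). Those most like *NRP1* were *FLT1* (0.86), *ARHGAP31* (0.85) and *PREX2* (0.83). The nearest to *VEGFC* were *SLC43A1* (0.73), *SUPT4H1* (0.71) and *SMARCA1* (0.70), and to *PGF* *RBM45* (0.74), *RAD51C* (0.74) and *ARL6* (0.73), each over 24 libraries.

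**Figure D5:**
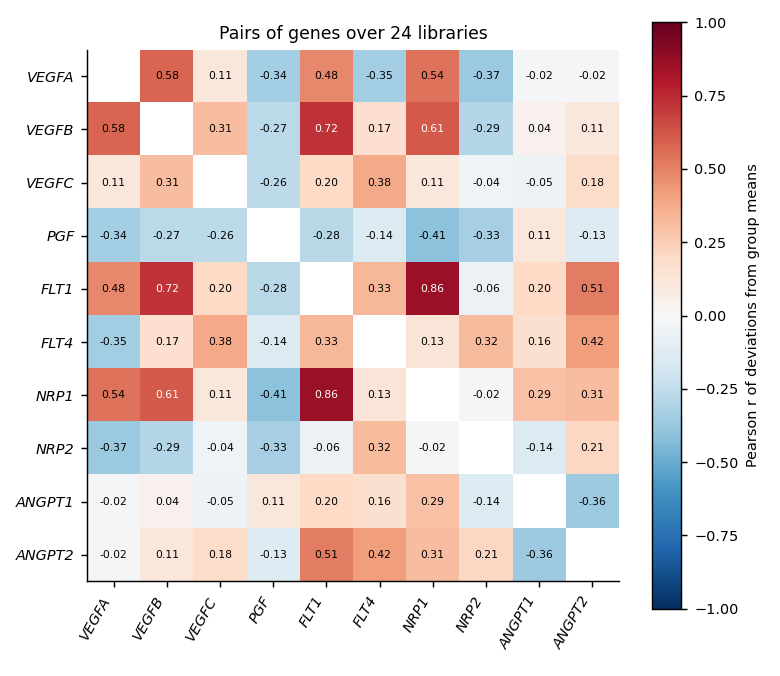
Pearson r of the deviations of log2 CPM from group means for each pair of the 10 genes over 24 libraries, red for positive and blue for negative values. The strongest cell is *FLT1* with *NRP1* at 0.86, and the row of *PGF* is blue or pale throughout, down to -0.41.

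The 4 differences of *T* + *WSD* against *C* had the same direction within the library batch (2 animals per group) and outside it (4 per group). The mean log2 CPM differed by 1.08 within and 0.52 outside the batch for *VEGFC*, by -1.40 and -1.22 for *PGF*, by 1.39 and 0.55 for *FLT1* and by 0.94 and 0.79 for *NRP1*. With the batch as a covariate all 4 were called (adjusted p 0.0207, 0.00504, 0.0323 and 0.0111 in that order). In the 16 libraries outside the batch none was called by edgeR (adjusted p 0.168, 0.0632, 0.186 and 0.0501), where 78 of 15448 genes were.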

How the data were processed

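RNA-seq of omental WAT from 24 animals was analysed. The authors trimmed reads with Trimmomatic 0.36 after FastQC 0.11.5, aligned them to rheMac8 with STAR 2.5.2b and tested them with DESeq2 1.18.1 (per the submitters' processing notes). They deposited raw counts per gene, not normalised. The counting tool and its strand setting are not given in the sources used here, so counts of overlapping, antisense or near-identical genes are uncertain. The age of 4 years is that of the labels, and the study's methods give an older one.

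Groups came from the sample labels. Counts of 15207 genes that passed filterByExpr (minimum count 10, minimum total 15) were tested with edgeR 4.0.16 in R 4.3.3 (TMM, quasi-likelihood F-test, robust=TRUE, legacy=TRUE) in 1 fit of 24 animals, two-sided, with Benjamini-Hochberg adjustment. A call needed a fold change over 1.5 at an adjusted p under 0.05 or, in the interaction, an adjusted p under 0.1. Every p in the text is from edgeR unless DESeq2 (1.42.0, Wald test) is named. Balances used counts plus 0.5. Log2 CPM used a prior count of 2.

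Symbols were read from a table of gene names, and 189 of the 12603 tested genes with a symbol were named from the study's supplementary tables. Gene lengths, positions and sequences were not used here. Named genes are the 10, the other ligands and receptors, any called gene of 7 pathway lists and the 3 genes most like each called one. The genes and lists were chosen with earlier results of these data known. Of 60 within-group pairs of libraries, 0 were identical. Alternatives were DESeq2, RLE normalisation, other filters, legacy=FALSE, only the groups compared, each animal left out, the batch, 2 marker covariates and no fold-change threshold.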

Additional observations from a re-analysis of the deposited data

Results flagged for a closer look

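Within groups of 6 animals, the highest or lowest value of 6 of 60 tested sets stood apart by Dixon's test on log2 CPM, where chance gives about 1 in 20 sets. *PGF* was at 11.9 CPM in *WSD* replicate 24, against 4.74 to 6.22 CPM in the other *WSD* animals. *FLT4* was at 41.5 CPM in *T* + *WSD* replicate 8, a library of the batch, against 23.9 to 25.3 CPM. *NRP2* was at 78.4 CPM in control replicate 3 (others 112 to 132 CPM), and *VEGFD* at 0.757 CPM in the same animal (others 4.04 to 10.2 CPM). *PTPRB* was at 95.9 CPM in control replicate 1 (others 193 to 228 CPM) and at 173 CPM in *T* replicate 13 (others 273 to 295 CPM), both libraries of the batch.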

How the results depend on the processing

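The 4 calls of *T* + *WSD* against *C* kept their number under DESeq2, RLE normalisation, at least 10 counts in every animal, legacy=FALSE, the batch as a covariate and no fold-change threshold. The number called moved from 4 to 0 in the libraries outside the batch and to 0 with the mesothelial or the endothelial marker mean as a covariate. Outside the batch there were fewer animals, and the log2 fold changes were 0.534 for *VEGFC*, -1.272 for *PGF*, 0.515 for *FLT1* and 0.789 for *NRP1*. The cause of these moves was not tested. Of *T* + *WSD* against *T* the 1 call moved to 0 under the same 3 alternatives (*VEGFC* adjusted p 0.0651, 0.537 and 0.17 in edgeR). The 0 of *WSD* against *C* moved to 1 with DESeq2. Without 1 animal, 3 to 5 genes were called in *T* + *WSD* against *C* and 1 in *T* + *WSD* against *T*, and 0 in the other comparisons. *FLT1* also lost its call without a filter on low counts (adjusted p 0.0528) and with only the groups compared (0.0597). So did *EGLN3* (0.0575 and 0.0558) and, without the filter, *PLXNA4* (0.0716), *PIK3R1* (0.05) and *ADM* (0.0606). Against *T*, *PLXNA4* (0.0675) and *EPAS1* (fold change under 1.5) lost theirs without the filter. With either marker covariate no named pathway gene was called against *C* or *T*.

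Signs turned in *T* + *WSD* against *C* with the mesothelial mean for *ANGPT1* (-0.053) and *TEK* (-0.065), and with the endothelial mean for *FLT1* (-0.039), *FLT4* (-0.18), *ANGPT2* (-0.48), *TEK* (-0.035) and *TIE1* (-0.019). In *T* + *WSD* against *T* they turned for *FLT1* (-0.35) and *NRP1* (-0.15) with the mesothelial and for *FLT1* (-0.24) with the endothelial mean. In *T* + *WSD* against *C* without 1 animal, *NRP2* ran from -0.021 to 0.13 and *TEK* from -0.03 to 0.276.

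Without 1 animal, *TIE1* lost its call without control replicate 1, 2 or 3, *EGLN3* without control replicate 1, 3 or 5 or *T* + *WSD* replicate 8, 9, 10 or 11, and *PLXNA4* without control replicate 1, 2, 3 or 4 or *T* + *WSD* replicate 7, 8, 9 or 11. *PIK3R1* lost it without control replicate 1 or 3 or *T* + *WSD* replicate 7, 8 or 11, and *ADM* without control replicate 3, 4 or 5 or *T* + *WSD* replicate 8 or 11. Against *T*, *PLXNA4* kept its call only without *T* replicate 14 or *T* + *WSD* replicate 12, *SRC* only without *T* replicate 14 or 17 or *T* + *WSD* replicate 11, and *CA12* only without *T* replicate 14 or 15 or *T* + *WSD* replicate 11. Over all genes, *T* + *WSD* against *C* had 1522 calls by edgeR, 78 outside the batch and 0 with either covariate, and 2603 with no fold-change threshold. No paired analysis was possible because the groups share no replicate numbers. The balances were alike with 1 added in place of 0.5. The fit limits low genes most, *PGF* with as few as 14 counts in a library.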
